A study of Mus musculus with 8 samples.

Results

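The 10 genes described here encode subunits of NELF (Nelfa, Nelfb, Nelfcd and Nelfe), DSIF (Supt4a and Supt5), the elongation factor SPT6 (Supt6) and the PAF complex (Paf1, Ctr9 and Cdc73). They were chosen by symbol among the 55335 genes counted. All 10 were found once and passed the filter on low counts, which kept 16504 genes.

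RNA polymerase II often halts shortly after it starts a transcript. DSIF binds the halted polymerase, and NELF holds it there. P-TEFb, the kinase made of CDK9 and a cyclin T, phosphorylates DSIF, NELF and the polymerase, upon which NELF leaves, and DSIF, SPT6 and the PAF complex travel with the elongating polymerase. In mouse embryonic stem cells (ESCs), the PAF complex is known for its part in keeping pluripotency genes active, and paused polymerase is found at many developmental genes.

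RNA-seq of poly(A) RNA was done in E14, a mouse ESC line grown on gelatin, in 4 groups of 2 biological replicates. Cells were infected with lentivirus carrying a scramble control shRNA (control) or shRNAs against Sox2 (Sox2-KD), Hnrnpk (labelled hnRNPK-KD, here the hnRNPK-labelled libraries) or Cdk9 (Cdk9-KD). All groups therefore carry an integrated shRNA vector, and part or all of the target mRNA remained in each knockdown. The study asked whether SOX2, a pluripotency transcription factor, and hnRNPK, an RNA-binding protein, act on transcription elongation. Cdk9-KD targets the mRNA of the kinase that acts on the factors described here. Which of the shRNAs against a gene was used in each library was not given in the sources used here.

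The 8 libraries held between 16709201 and 17719366 counts. Levels are given as CPM, a gene's counts scaled to a common library size, after TMM correction for library composition. Cdk9 was at 109 and 129 CPM in control and at 73.1 and 53.2 CPM in Cdk9-KD (log2 fold change, log2FC, -0.91, adjusted p = 0.0985), and Sox2 at 412 and 530 CPM in control and at 320 and 284 CPM in Sox2-KD (log2FC -0.64, adjusted p = 0.0479). Hnrnpk was at 1094 and 1131 CPM in control and at 697 CPM in replicate 1 of the hnRNPK-labelled libraries, but at 1144 CPM in replicate 2, which goes against its label. The log2FC against control of each of the 10 genes in that group is therefore also given without replicate 2. Values for the other gene lists, DESeq2 calls and statements over all libraries with a targeting shRNA include replicate 2. The summed level of 10 ES cell markers was between 6610 and 8670 CPM in every library, which does not show single markers. In Sox2-KD, Nanog (612 and 566 CPM, against 846 and 746 in control), Pou5f1 and Esrrb lay below both controls. Utf1 lay above them (50.5 and 48.1 CPM, against 25.8 and 30.9), and the other ES cell markers overlapped control. By the test described below, 1 of the 10 ES cell markers was called higher in Sox2-KD and 0 lower, where 4.32% of genes tested were called. Lying apart from both controls was common, as 53.3% of genes tested did so in Sox2-KD. The summed level of 8 trophectoderm markers was 85.5 and 99.1 CPM in control and 179 and 312 CPM in Sox2-KD, mostly Krt8 and Krt18. Krt7, Gata3 and Hand1 also rose, to at most 4.91 CPM. Cdx2 went the other way, from 19.8 and 35.1 CPM in control to 6.1 and 6.22 CPM in Sox2-KD. Tfap2c did as well, from 43.4 and 43 CPM to 28.7 and 32.5 CPM. Of 6 trophectoderm markers tested in Sox2-KD, 4 were called higher and 0 lower, so that neither of these falls was called. Elf5 was at or below 0.0571 CPM in Sox2-KD. In Cdk9-KD, 1 of the 6 trophectoderm markers tested was called lower, and Tfap2c was at 13.1 and 7.81 CPM. Cdx2 was at 20.3 CPM in replicate 1 of the hnRNPK-labelled libraries and at 85.1 CPM in replicate 2, with 0 trophectoderm markers called in that group. For 7 primitive endoderm markers the sum was 3.83 and 5.1 CPM in control and 43.1 and 62.5 CPM in Sox2-KD. Most of it in Sox2-KD was Dab2, with Foxa2 at 0.33 and 0 CPM. Whether trophectoderm or primitive endoderm cells were present, and their part in the Sox2-KD values below, was not tested. In bulk RNA, fewer cells of a type cannot be told apart from less RNA per cell. Sums of 6 fibroblast markers were at most 6.19 CPM in any library. Those of 4 neural markers were between 46.7 and 83.5 CPM, with Sox1 at 5.63 and 2.98 CPM in control and 0.549 and 0.514 CPM in Sox2-KD. In Sox2-KD, 1 of 4 fibroblast markers tested was called higher, and 1 of 3 neural markers tested was called lower.

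The promoters of Supt5 and Paf1 are shown because these genes lie close to each other on chromosome 7 and had the lowest values in both control libraries. On GRCm38, Supt5 takes up positions 28314891 to 28338746 of chromosome 7 (- strand) and Paf1 positions 28392951 to 28399388 (+ strand), with 54204 bases and 4 other protein-coding genes between them. The RefSeq table (GRCm38.p6) held a promoter for 7 of the 10 genes (not for Nelfcd, Nelfe and Ctr9), and the bases shown are those of its 250 upstream bases that precede the annotated gene. Capitals mark the GC box GGGCGG and the CCAAT box, on either strand.
Supt5, chr7:28338747-28338969, - strand: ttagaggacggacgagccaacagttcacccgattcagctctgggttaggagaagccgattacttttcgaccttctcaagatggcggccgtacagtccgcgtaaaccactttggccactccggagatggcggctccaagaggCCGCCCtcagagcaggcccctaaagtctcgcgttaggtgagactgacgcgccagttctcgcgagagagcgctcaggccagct
Paf1, chr7:28392746-28392950, + strand: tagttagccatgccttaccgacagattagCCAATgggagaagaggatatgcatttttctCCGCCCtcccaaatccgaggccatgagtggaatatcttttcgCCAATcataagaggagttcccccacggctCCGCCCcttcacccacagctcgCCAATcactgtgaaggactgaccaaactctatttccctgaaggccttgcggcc
The 223 bases of Supt5 hold 1 GC box, which 28.9% of 32851 promoters hold over the same length, and the 205 bases of Paf1 hold 2 GC boxes and 3 CCAAT boxes, which 25.6% and 29.2% of promoters hold at least once. The SOX motifs ACAATG and ACAAAG and the TATA box TATAAA, searched on both strands, had no match in either window. These matches describe the letters only.

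With read counts divided by the annotated exonic length, Supt4a had the highest level of the 10 genes in control, at 57.6 ± 8.33 CPM per kb (SD, n = 2), and Cdc73 the lowest, at 6.75 ± 0.641 CPM per kb. Between them came Supt6 (32.6 ± 2.63 CPM per kb), Supt5 (32.4 ± 2.2), Nelfcd (27.2 ± 2.5), Nelfe (25.1 ± 2.94), Nelfb (20.4 ± 1.53), Paf1 (18.4 ± 0.0956), Ctr9 (16.05 ± 2.64) and Nelfa (14.1 ± 0.406). The control values of Supt6 and Supt5, of Nelfcd and Nelfe, and of Ctr9 and Nelfa overlapped, so that the order within each of these pairs is not resolved. Divided by the longest coding transcript instead, Supt4a stayed highest (76.9 ± 11.1 CPM per kb) and Cdc73 lowest (10.3 ± 0.974). On that scale Supt5 (49.7 ± 3.37) lay above Supt6 (35.7 ± 2.88), and Paf1 (31.7 ± 0.164) lay above Nelfb (26.5 ± 2). The mean of Ctr9 (29.9 ± 4.9) also passed that of Nelfb, with overlapping control values. The plot of level per length shows both scales.

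**Figure D1:**
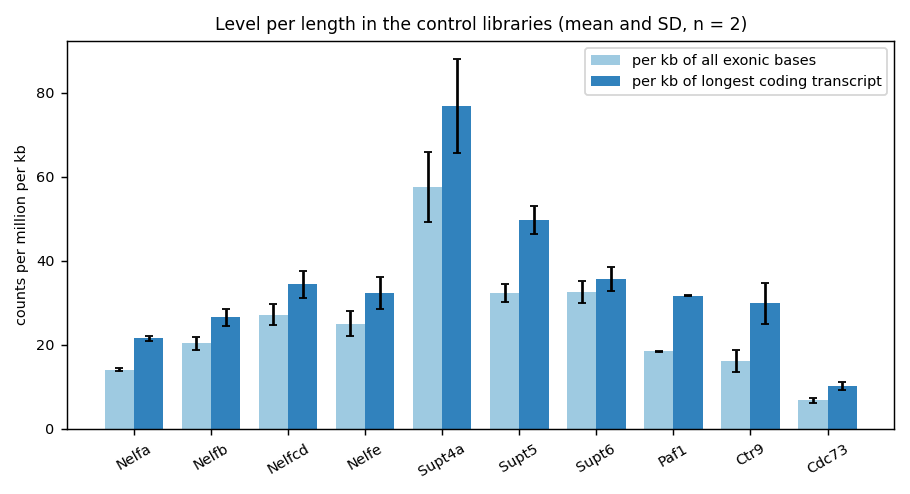
Level of the 10 genes in the 2 control libraries, in CPM per kb of exonic length (light bars) or of the longest coding transcript (dark bars), as mean with SD (n = 2). Supt4a was highest (57.6 and 76.9) and Cdc73 lowest (6.75 and 10.3) on both scales.

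None of the 10 genes was called changed in any knockdown. A gene was called when edgeR's quasi-likelihood test gave an adjusted p under 0.05, taken over all genes tested, with a log2FC beyond 0.6 in either direction. Sox2-KD gave 0 of 10 calls against control, where 4.32% of genes tested were called. The hnRNPK-labelled libraries gave 0 of 10 (0% of genes tested), and Cdk9-KD gave 0 of 10 (0.139% of genes tested). At an unadjusted p under 0.05, each comparison held 2 of the 10 genes, against 19.3%, 8.03% and 10.4% of genes tested in the same order. DESeq2 also called 0 of 10 in each comparison, where it called 1029, 74 and 221 of 16504 genes tested in the same order. All 10 log2FC intervals (95%) lay within 1 of zero in each of the 3 comparisons, and 8, 7 and 6 of them lay within 0.6. A change past the threshold of 0.6 was therefore not within the interval for most of the genes, while smaller changes were not resolved. The 3 comparisons share the 2 control libraries. The counts measure mRNA, and neither protein levels nor phosphorylation of these factors was analysed here.

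**Figure D2:**
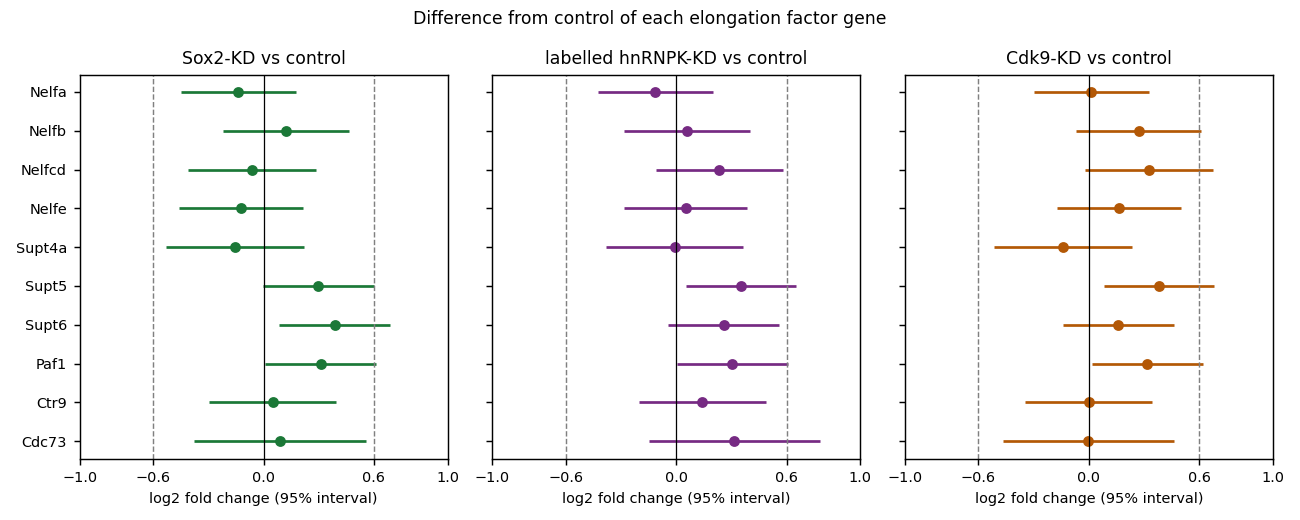
Log2 fold change of the 10 genes against control with its 95% interval from edgeR, in the 3 knockdowns. Dashed lines mark the call threshold of 0.6 in either direction. Points lie between -0.15 and 0.39, and the intervals of Supt6 in Sox2-KD, Supt5 in the hnRNPK-labelled libraries and in Cdk9-KD, and Paf1 in all 3 lie above zero before adjustment.

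Among the NELF genes, Nelfa (chromosome 5, 33897916 to 33936413, - strand) encodes the subunit that contacts the polymerase. It was at 54.6 and 56.8 CPM in control, 53 and 48.3 CPM in Sox2-KD, 51.1 and 51.9 CPM in the hnRNPK-labelled libraries and 56.8 and 55.5 CPM in Cdk9-KD. All 8 values lay within a 1.18-fold range, the narrowest of the 10 genes. The SD of its log2 CPM lay at percentile 0.903 among genes tested, which were not matched to it in level. The Sox2-KD libraries (log2FC -0.14 ± 0.142, SE) and the hnRNPK-labelled libraries (-0.11, and -0.15 without replicate 2) lay below both control libraries, and neither difference passed the test (adjusted p = 0.654 and 0.908). Cdk9-KD overlapped control, with a log2FC of 0.01 (adjusted p = 0.988). Its exons share 60 bases with those of Nsd2 on the other strand, so that a few reads could count for either gene.

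Nelfb (chromosome 2, 25199712 to 25211489, - strand), which encodes a scaffold subunit, was at 66.2 and 73.7 CPM in control, 72.9 and 79.4 CPM in Sox2-KD, 66 and 79.6 CPM in the hnRNPK-labelled libraries and 88.8 and 80 CPM in Cdk9-KD. The Cdk9-KD libraries lay above both controls, with a log2FC of 0.27 ± 0.154 (SE, adjusted p = 0.58), or 0.16 without either replicate 1 of control or replicate 1 of Cdk9-KD, while Sox2-KD (0.12, adjusted p = 0.718) and the hnRNPK-labelled libraries (0.06, adjusted p = 0.963, and -0.11 without replicate 2) overlapped control. Nelfcd (chromosome 2, 174415804 to 174427502, + strand) encodes the NELF-C and NELF-D forms of a subunit. It was at 83.5 and 73.3 CPM in control, 76.8 and 73.4 CPM in Sox2-KD, 88.1 and 96.4 CPM in the hnRNPK-labelled libraries and 109 and 87.3 CPM in Cdk9-KD. Both the hnRNPK-labelled libraries (log2FC 0.23 ± 0.157, adjusted p = 0.787, and 0.14 without replicate 2) and Cdk9-KD (0.33 ± 0.157, adjusted p = 0.508) lay above the control values without passing the test. Sox2-KD overlapped control (-0.06, adjusted p = 0.876). Leaving out replicate 1 of Cdk9-KD moved the Cdk9-KD value to 0.12, and leaving out replicate 2 of control moved it to 0.21 and that of the hnRNPK-labelled libraries to 0.13.

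Nelfe (chromosome 17, 34850391 to 34856372, + strand) encodes the RNA-binding subunit. Its level was 47.7 and 56.3 CPM in control, 47 and 48.5 CPM in Sox2-KD, 50.8 and 56.9 CPM in the hnRNPK-labelled libraries and 57.8 and 58.7 CPM in Cdk9-KD. Cdk9-KD again lay above both controls (log2FC 0.16 ± 0.152, adjusted p = 0.769, and 0.01 without replicate 1 of control), while Sox2-KD (-0.12, adjusted p = 0.711) and the hnRNPK-labelled libraries (0.05, adjusted p = 0.967, and -0.06 without replicate 2) overlapped control. The geometric mean over the 4 NELF genes was 61.7 and 64.6 CPM in control, 61.2 and 60.9 in Sox2-KD, 62.5 and 69.1 in the hnRNPK-labelled libraries and 75.2 and 69.2 in Cdk9-KD. This mean was thus highest in the Cdk9-KD libraries and replicate 2 of the hnRNPK-labelled libraries, with no gene passing the test. Nelfa did not follow it. Its level overlapped control in Cdk9-KD and, at 51.9 CPM, lay below both controls in replicate 2 of the hnRNPK-labelled libraries.

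**Figure D3:**
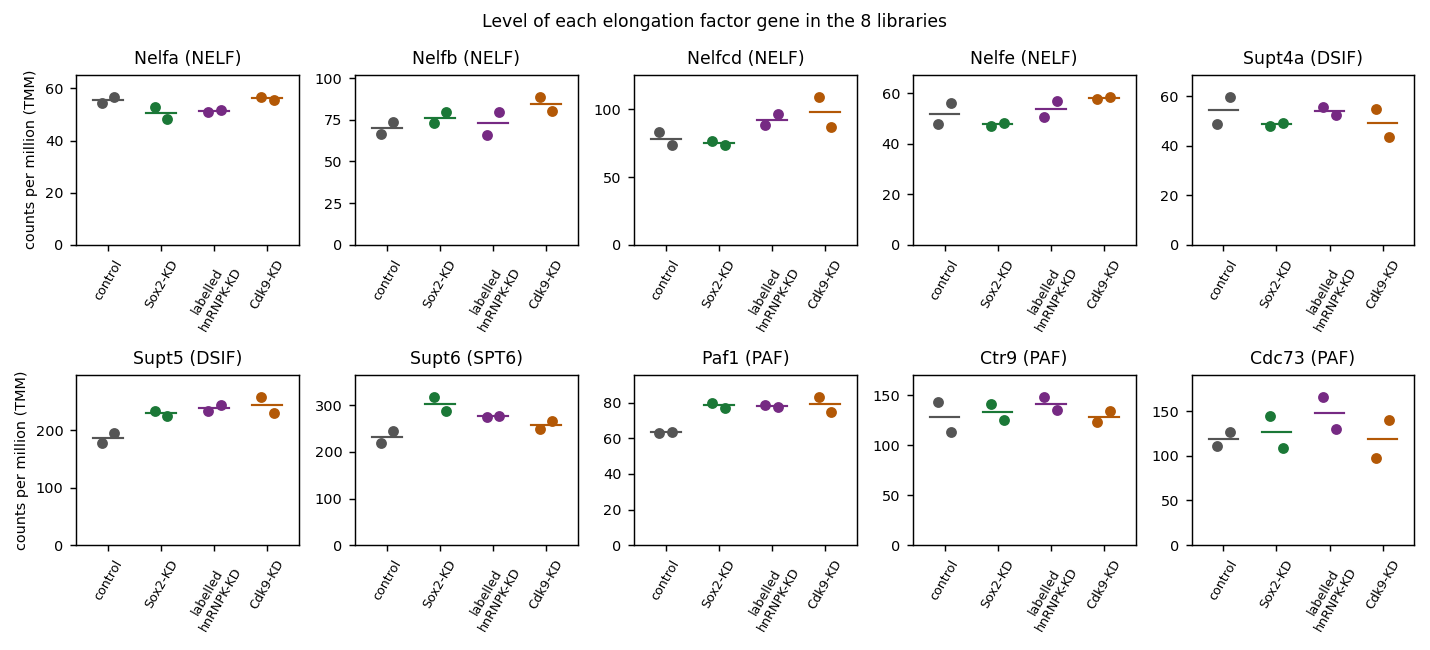
Level of each of the 10 genes in the 8 libraries, in TMM-scaled CPM from zero, with points for the libraries and lines for group means (2 libraries per group). Supt5, Supt6 and Paf1 have both control points below all 6 others. Most of the other genes have control points that overlap the knockdown points.

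DSIF is a dimer of a large and a small subunit. Supt5 (5764 exonic bases) encodes SPT5, the large subunit, whose C-terminal repeats are a P-TEFb substrate. It was at 178 and 196 CPM in control, 234 and 225 CPM in Sox2-KD, 232 and 244 CPM in the hnRNPK-labelled libraries and 257 and 229 CPM in Cdk9-KD. Each of the 6 libraries with a targeting shRNA lay above both controls. The log2FC was 0.30 ± 0.136 (SE) in Sox2-KD (adjusted p = 0.266), 0.35 ± 0.136 in the hnRNPK-labelled libraries (adjusted p = 0.558) and 0.38 ± 0.136 in Cdk9-KD (adjusted p = 0.371), and none passed the test. Without replicate 2 of the hnRNPK-labelled libraries the value there was 0.29. An annotated antisense gene, Gm44709, covers 433 exonic bases of Supt5 and had 0 counts in every library. Supt4a (chromosome 11, 87737552 to 87743623, + strand) encodes the small zinc finger subunit SPT4. It was at 48.7 and 59.8 CPM in control, 48.2 and 49.3 CPM in Sox2-KD, 55.6 and 52.3 CPM in the hnRNPK-labelled libraries and 54.8 and 43.7 CPM in Cdk9-KD. The control libraries of Supt4a differed by 20.5% of their mean, and each group overlapped them. Its log2FC was -0.15, -0.01 and -0.14 in the same order of groups (adjusted p = 0.674, 0.994 and 0.839), and 0.01 in the hnRNPK-labelled libraries without replicate 2. Reads of its near-identical copy Supt4b were few, 2 to 9 counts per library or 0.213% to 1.04% of those of Supt4a, and how reads shared by the copies were counted is not given in the sources used here.

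Supt6 (chromosome 11, 78206746 to 78245987, - strand) encodes SPT6, a histone chaperone that binds the elongating polymerase. It was at 218 and 245 CPM in control, 318 and 287 CPM in Sox2-KD, 275 and 278 CPM in the hnRNPK-labelled libraries and 249.5 and 267 CPM in Cdk9-KD. All 6 libraries lay above both controls, with replicate 1 of Cdk9-KD next to the higher control. In Sox2-KD the log2FC was 0.39 ± 0.136 (SE), which is a 1.31-fold level with an interval from 1.06 to 1.61, and an adjusted p of 0.147. The value was 0.26 ± 0.136 in the hnRNPK-labelled libraries (adjusted p = 0.691, and 0.23 without replicate 2) and 0.16 ± 0.136 in Cdk9-KD (adjusted p = 0.742). Without replicate 1 of control these values were 0.16 and 0.04. Of the exonic bases of Supt6, 3.41% overlap Sdf2 on the other strand, whose 376 to 582 counts are few beside the 3876 to 5784 of Supt6.

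In the PAF complex, Paf1 (3438 exonic bases) encodes the subunit that gives the complex its name. Its level was 63.2 and 63.6 CPM in control, 80.1 and 77.2 CPM in Sox2-KD, 78.9 and 77.8 CPM in the hnRNPK-labelled libraries and 83.2 and 74.9 CPM in Cdk9-KD. The 2 control libraries differed by 0.734% of their mean, and the 6 others all lay above them. The log2FC was 0.31 ± 0.137 (SE) in Sox2-KD (adjusted p = 0.248), 0.30 ± 0.137 in the hnRNPK-labelled libraries (adjusted p = 0.618, and 0.29 without replicate 2) and 0.32 ± 0.137 in Cdk9-KD (adjusted p = 0.461), none of which passed the test. Ctr9 (chromosome 7, 111028951 to 111056377, + strand) encodes the scaffold of the complex. It was at 143 and 113 CPM in control, 141 and 125 CPM in Sox2-KD, 148 and 135 CPM in the hnRNPK-labelled libraries and 123 and 134 CPM in Cdk9-KD. The control libraries were 23.2% of their mean apart and overlapped every group, with a log2FC of 0.05, 0.14 (0.18 without replicate 2) and -0.0007 (adjusted p = 0.902, 0.895 and 0.999). Cdc73 (chromosome 1, 143598800 to 143702893, - strand) encodes parafibromin, a tumour suppressor. It was at 111 and 127 CPM in control, 145 and 108 CPM in Sox2-KD, 166 and 130 CPM in the hnRNPK-labelled libraries and 97.5 and 140 CPM in Cdk9-KD. This was the widest range of the 10 genes (1.70-fold), and replicates of 1 group were up to 35.7% of their mean apart. The hnRNPK-labelled libraries lay above control (log2FC 0.32 ± 0.211, adjusted p = 0.787). That value was 0.45 without replicate 2, 0.12 without replicate 1 and 0.20 without replicate 1 of control. The other groups overlapped it (0.09 and -0.0032, adjusted p = 0.867 and 0.997).

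Read over the 10 genes, both control libraries lay below all 6 other libraries for 3 genes (Supt5, Supt6 and Paf1), a pattern that 5.71% of genes tested had. The reverse held for 0 of the 10 and for 3.57% of genes tested. These 3 genes were singled out after their values were seen, and the pattern rests on the same 2 control libraries in each comparison. Groups did not overlap control for 4 of 10 genes in Sox2-KD (53.3% of genes tested), 6 of 10 in the hnRNPK-labelled libraries (39.1%) and 6 of 10 in Cdk9-KD (39.2%). The median log2FC of the 10 genes was 0.07, 0.19 and 0.16 in that order, against 0.02 in each for all genes tested. The median absolute log2FC was 0.13, 0.19 and 0.16, against 0.28, 0.20 and 0.22. Without replicate 2, the hnRNPK-labelled libraries gave a median log2FC of 0.16, and 8 of 10 genes did not overlap control (70.7% of genes tested). The SD of log2 CPM over the 8 libraries had a median of 0.148 in the 10 genes and 0.299 in all genes tested. Mean levels of the 10 genes lay between percentiles 73.0 and 96.0. The genes tested were not matched to them in level, so neither the SD nor the absolute log2FC shows the 10 genes to be unusually stable.

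**Figure D4:**
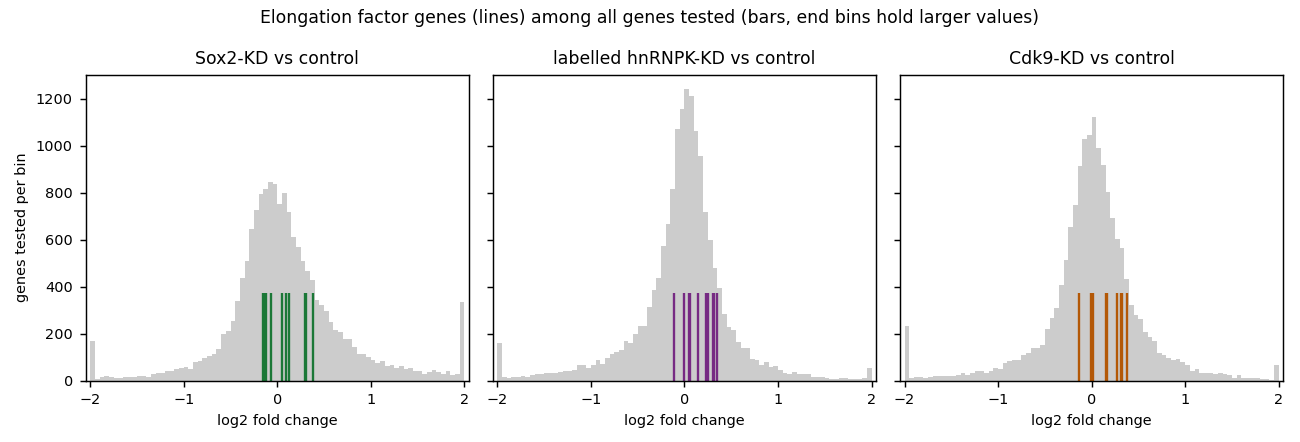
Number of genes tested by log2 fold change against control (grey bars, 16504 genes, end bins hold larger values), with a coloured line for each of the 10 genes, in the 3 knockdowns. The lines lie between -0.15 and 0.39, with 6 of 10 above zero in Sox2-KD, 8 in the hnRNPK-labelled libraries and 7 in Cdk9-KD.

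Among the 6 libraries with a targeting shRNA, the levels of Supt5 and Paf1 had a Pearson r of 0.76 and a Spearman rho of 0.77 on the log2 scale, given as a description. The pair was picked after the values were seen. Over the same 6 libraries, r of the 45 pairs of the 10 genes ran from -0.91 to 0.97 with a median of -0.08, and 4 pairs, Supt5 and Paf1 included, had an r at least as high. Without the 2 libraries farthest from the median of Supt5, r was 0.64 and rho 0.80 over 4 libraries. Control libraries are left out of these values because they lay apart from the others for both genes. The points share libraries and their scaling.

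**Figure D5:**
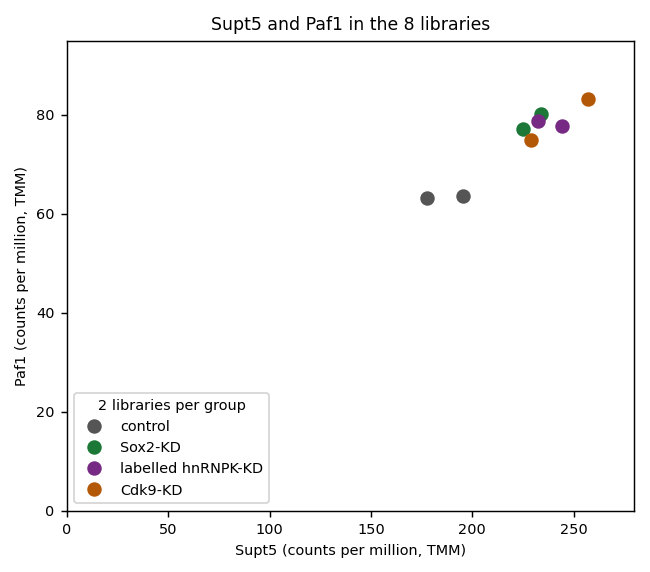
Paf1 against Supt5 in the 8 libraries, both in TMM-scaled CPM from zero, coloured by group. The 2 control libraries (178 and 196 for Supt5, 63.2 and 63.6 for Paf1) lie apart from the 6 others, which range from 225 to 257 for Supt5 and from 74.9 to 83.2 for Paf1.

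Compared directly with each other, the knockdowns gave 0 of 10 calls in each of 3 comparisons. The share of genes tested that was called was 5.9% between Sox2-KD and the hnRNPK-labelled libraries, 7.33% between Sox2-KD and Cdk9-KD, and 0% between the hnRNPK-labelled libraries and Cdk9-KD. DESeq2 also called 0 of 10 in each, where it called 1275, 1433 and 49 of 16504 genes tested in the same order. Without replicate 2 of the hnRNPK-labelled libraries, Cdc73 had the largest log2FC of the 10 genes in both comparisons that hold this group. It was -0.38 in Sox2-KD against this group and 0.49 in this group against Cdk9-KD. At an unadjusted p under 0.05 the count was 0, 1 and 0 of the 10, against 21.3%, 21.7% and 5.71% of genes tested in the same order, and the 1 gene was Nelfcd. Nelfcd was lower in Sox2-KD than in Cdk9-KD in both libraries, with a log2FC of -0.39 ± 0.157 (SE, 95% interval -0.74 to -0.04, adjusted p = 0.176). It was -0.20 without replicate 1 of Cdk9-KD (adjusted p = 0.543) and -0.55 without replicate 2. The largest difference of Supt5 was between the same groups (-0.08, interval -0.38 to 0.22) and that of Paf1 was between the hnRNPK-labelled libraries and Cdk9-KD (-0.01, interval -0.32 to 0.29). For none of the 10 genes was a difference between knockdowns shown.

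The other genes of the elongation machinery were read from lists of symbols. The other PAF subunits Leo1, Rtf1 and Wdr61 and the SPT6 partner Iws1 gave 0 of 4 calls in each knockdown, and in Sox2-KD their log2FC ran from -0.35 (Wdr61, adjusted p = 0.328) to -0.02 (Leo1, adjusted p = 0.948). Of 7 genes of P-TEFb and the 7SK snRNP, which holds P-TEFb inactive, 0 were called in any knockdown. Hexim1, the P-TEFb inhibitor, had the highest log2FC of these in Sox2-KD (0.50, adjusted p = 0.0942) and Ccnt2, a cyclin partner of CDK9, the lowest (-0.30, adjusted p = 0.46). The log2FC of Hexim1 was 0.53 in the hnRNPK-labelled libraries (adjusted p = 0.438) and 0.19 in Cdk9-KD (adjusted p = 0.705).

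The 10 super elongation complex genes gave 0 calls. In Sox2-KD their log2FC ran from -1.41 ± 0.662 (SE) in Ell3 (adjusted p = 0.259) to 0.47 ± 0.162 in Aff1, a scaffold (adjusted p = 0.138). Of 13 RNA polymerase II subunit genes, Polr2h, a subunit shared by the nuclear RNA polymerases, fell by 0.63 on the log2 scale in Sox2-KD (adjusted p = 0.0393), and the others were not called, with the highest log2FC (0.17, adjusted p = 0.582) in Polr2a, the largest subunit. Of 8 FACT, TFIIS and Elongin genes found, Tcea3, a TFIIS form that helps backtracked polymerase resume, rose in Sox2-KD by a log2FC of 0.83 (adjusted p = 0.0408), and the others were not called, with the lowest log2FC (-0.51, adjusted p = 0.234) in Tcea1, another TFIIS form. The log2FC of Tcea3 was 0.58 in the hnRNPK-labelled libraries (adjusted p = 0.511) and 0.48 in Cdk9-KD (adjusted p = 0.432). Both Sox2-KD calls were lost when any 1 of the 4 libraries compared was left out (adjusted p up to 0.289 for Polr2h and 0.215 for Tcea3) and without a filter on low counts, that of Polr2h also with library totals (adjusted p = 0.0573) and that of Tcea3 with a replicate block (adjusted p = 0.0527). The 14 Integrator genes found, the 7 enzymes of H2B ubiquitin and H3K36 or H3K79 methylation and the 10 phosphatase genes gave 0 calls in each knockdown. In Sox2-KD, Ints1 was highest (0.24) and Ints10 lowest (-0.29) among Integrator genes. Among the histone enzymes Dot1l, the H3K79 methyltransferase, was highest (0.31) and Rnf20, an H2B ubiquitin ligase, lowest (-0.04). Among phosphatase genes Ppp1r10, a regulatory subunit of protein phosphatase 1, was highest (0.32 ± 0.521, SE). Ppp1cb, a catalytic subunit of the same phosphatase, was lowest (-0.42 ± 0.168), and none of these 6 genes passed the test. No gene of the 8 lists was called in the hnRNPK-labelled libraries or in Cdk9-KD, and in all Polr2h and Tcea3 were the 2 calls among 73 list genes tested in Sox2-KD, against 4.32% of genes tested.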

How the data were processed

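Per the study's methods, the authors trimmed the reads with Trimmomatic and aligned them with STAR to mm10 (GENCODE vM23). The submitters' processing notes name STAR 2.7.9a, where the methods name another version, and featureCounts 2.0.1 for counts per gene. The authors deposited raw counts, neither normalized nor pooled, of 8 libraries with totals of 16709201 to 17719366. The strand setting and the treatment of shared reads are not given in the sources used here. Columns were matched to samples by name.

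The filterByExpr function (about 10 counts at the median library size in as many libraries as a group has, 15 in total) chose the genes, which were tested with edgeR 4.0.16 in R 4.3.3 (TMM, group term, all 8 libraries, quasi-likelihood test, Benjamini-Hochberg adjustment over 16504 genes). A gene was called at an adjusted p under 0.05 with a log2FC beyond 0.6 in either direction, as the study did for transcripts. Standard errors and 95% intervals come from the same fit. For SDs and correlations over libraries a prior count of 2 was used on the log2 scale. Coordinates and exonic lengths are from GENCODE vM21 (GRCm38), in which the IDs of the 10 genes have the same version as in the counts, and promoters from RefSeq. The test was tried on simulated counts. Alternatives were DESeq2 1.42.0, RLE size factors, library totals, no filter, only the 4 libraries compared, a replicate block, no fold threshold and each library left out. Figures were drawn with matplotlib 3.10.9.

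The genes, the gene lists and the rule for naming list genes (up to 4 a list, from the 2 highest and the 2 lowest log2FC in Sox2-KD, the comparison with the most calls against control, and any gene called, of which the text gives the highest, the lowest and those called) were chosen with earlier results of these data known. Amino acid sequences were not used here.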

Additional observations from a re-analysis of the deposited data

How the results depend on the processing

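The count of called genes was 0 of 10 in all 6 comparisons with DESeq2, RLE size factors, library totals and no filter. The same held with only the 4 libraries compared, no fold threshold and a replicate block. Calls over all genes tested are given above for the main fit and DESeq2 only. Each library was also left out in turn. Of 300 recomputed log2FC values against control, 0 reached an adjusted p under 0.05 and 24 changed sign, all of genes whose own value was at most 0.14 in size. Of 300 values between knockdowns, 27 changed sign (own values up to 0.13), and 0 were called. Supt5, Supt6 and Paf1 kept their sign against control under each alternative, and Nelfcd did between Sox2-KD and Cdk9-KD. With 1 library left out, the lone library is assumed to vary like the other groups. The log2FC then ran from -0.16 to 0.016 for Nelfcd, -0.12 to 0.21 for Ctr9 and -0.15 to 0.28 for Cdc73 in Sox2-KD. It ran from -0.11 to 0.18 for Nelfb, -0.085 to 0.16 for Nelfe, -0.17 to 0.14 for Supt4a and -0.029 to 0.30 for Ctr9 in the hnRNPK-labelled libraries. In Cdk9-KD it ran from -0.055 to 0.028 for Nelfa, -0.34 to 0.014 for Supt4a, -0.19 to 0.14 for Ctr9 and -0.29 to 0.20 for Cdc73. Library totals gave 0.0047 for Nelfcd in Sox2-KD, and Nelfa in Cdk9-KD was -0.0065 with RLE size factors and with DESeq2 and -0.0031 without a filter. With library totals the median log2FC of all genes between Sox2-KD and the hnRNPK-labelled libraries moved from -0.01 to 0.098. The cause of these sign changes was not tested.

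Replicate numbers are shared by all groups, but no source ties a number to a batch, and deviations of same-numbered libraries correlated between -0.22 and 0.21. The replicate block gave 0 of 10 calls in each comparison, and Ctr9 in Cdk9-KD became 0.0095. With 2 libraries per group, the 95% intervals given above show which sizes of difference were not resolved. Sensitivity of the called genes Sox2, Polr2h and Tcea3 in Sox2-KD was added after seeing the data. Of 10 alternatives each, 2, 4 and 4 kept the call, and the adjusted p ran from 0.00664 to 0.311, 0.0101 to 0.289 and 0.00436 to 0.215. No sign changed among them.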
